A study of Bos taurus with 5 samples.

Results

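The cross carrying 75 percent Holstein blood was compared with both crosses carrying 50 percent, in 3 of the 5 leukocyte RNA libraries of a cattle series. 75C is 75 percent Holstein, a dairy breed, and 25 percent native cattle of Iran. The 50 percent crosses differ in the direction of the mating: 50CSN had a native sire and a Holstein dam, and 50CSH had a Holstein sire and a native dam. The remaining libraries are the purebreds N and H, whose letters are not spelled out in the labels. The library labels do not give the age of the animals, the mating that produced 75C, or whether a library holds 1 animal or a pool. Each population has 1 library, so no value below has a replicate of its own population, and the only spread available is the difference between 50CSN and 50CSH.

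Loci were chosen by level alone. The values are FPKM, fragments per kilobase scaled to the size of the library, summed over the transcripts of each locus. Of 31898 loci, 13653 averaged 1 FPKM or more in the 3 crosses and entered the comparison. An Ensembl transcript ID was attached to 11529 of them and not to the other 2124. No such locus could be given a gene symbol from the tables used here, so each is named by its Ensembl transcript ID or assembly number and its position. Marker genes could therefore not be looked up, and the labelled cell type was not checked.

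Circulating leukocytes are a mixture of lymphocytes, monocytes and granulocytes, and the proportions of these cells shift with age, infection, lactation and stress. In bulk RNA, fewer cells of a type and less RNA per cell cannot be told apart. In a first cross, every chromosome pair holds 1 copy from each breed. In an animal with more blood of 1 breed, stretches of the genome carry only that breed's copies, and an allele with a strong effect in cis changes the RNA of its gene in proportion to its copies. Reciprocal crosses, such as 50CSN and 50CSH, have the same breed shares but differ in which parent gave each copy and in the mitochondria, which come from the dam.

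The summed FPKM of the crosses was 843353 in 75C, 852903 in 50CSN and 789089 in 50CSH. Counts of reads were not at hand, so depth is known only in relative terms. A read was worth 1.23 times as much in 75C as in 50CSN, and 1.09 times as much in 75C as in 50CSH. Each ratio was shared by 97 of 2389 low loci. By that estimate 75C was the least deeply sequenced of the 3. Short unannotated loci, shorter than 300 nt, took 18.3% of the summed FPKM in 75C, against 12.3% in 50CSN and 13.2% in 50CSH, with H at 14.2% and N at 15.5%. An exact 0 in such a table can be a failed estimate. It was found at 138 kept loci, 62 in 75C, 62 in 50CSN and 66 in 50CSH, and these loci are described as listed at 0.

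75C lay a little farther from each 50 percent cross than these lay from each other. On the scale of log2(FPKM + 1), which understates the change of low loci, the median absolute difference was 0.19 between 75C and 50CSN, 0.18 between 75C and 50CSH and 0.15 between 50CSN and 50CSH. H and N differed by a median of 0.15. At least 2-fold differences were counted at 490 loci between 75C and 50CSN, 497 between 75C and 50CSH, 396 between the 50 percent crosses and 387 between the purebreds. These pairs share libraries, and their numbers are given side by side with no test.

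75C was above both 50 percent crosses at 5748 loci (42.1%), below both at 4172 (30.6%) and between or level with them at 3733 (27.3%). By more than the difference between 50CSN and 50CSH, it was above at 3216 loci (23.6%) and below at 2286 (16.7%). This split depends on how the libraries are scaled. As deposited, 58.5% of these loci had 75C higher, but the share was 44.3% after median-of-ratios scaling and 44.9% after quantile normalization, so no direction can be read from it. The median difference of 75C from the mean of the 50 percent crosses moved from 0.04 to -0.02 with either scaling.

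At larger distances 75C was more often the higher library, under both scalings as well. 75C was at least 2-fold above both 50 percent crosses at 169 loci (1.24%) and at least 2-fold below both at 66 (0.483%). The higher share was 71.9% of these as deposited, 67.3% after median-of-ratios scaling and 65.8% after quantile normalization. It was 48.4% when single transcripts were counted in place of loci. Of the 169, 151 exceeded the difference between the 50 percent crosses, and of the 66, 61 did. Without the loci listed at 0 in any cross, 135 remained above and 41 below. The 4-fold limit left 51 above and 16 below, of which 24 and 2 were above 0 in all 3 crosses.

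**Figure D1:**
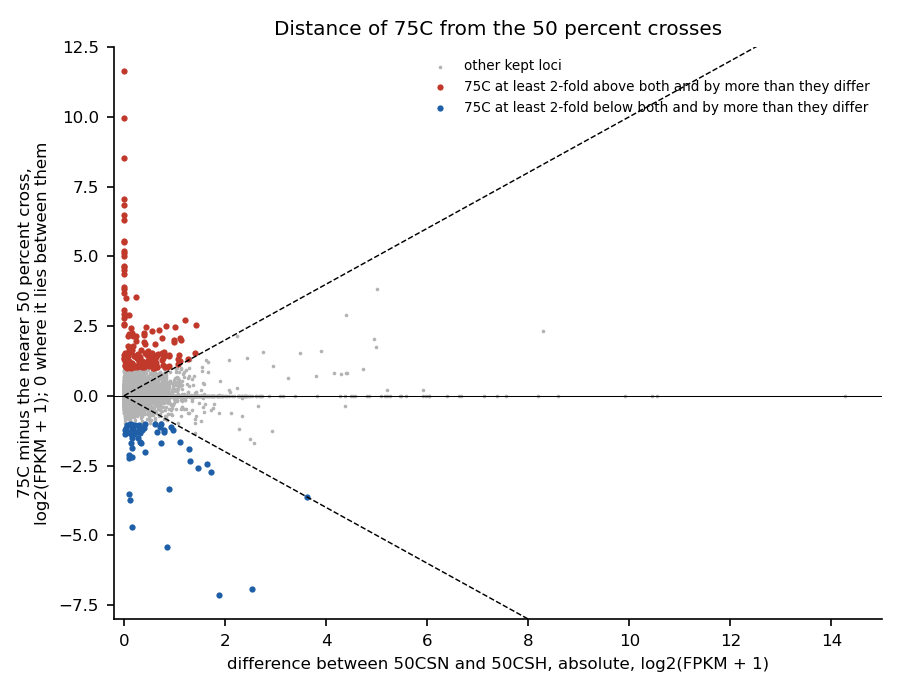
Each point is 1 of 13653 kept loci, with the absolute difference between 50CSN and 50CSH on the horizontal axis and the difference of 75C from the nearer of them on the vertical axis, both in log2(FPKM + 1); 0 stands for loci where 75C lies between them. The dashed lines mark equal distances, the 151 red and 61 blue points lie at least 2-fold and farther out than these, and the column of red points at 0 on the horizontal axis up to 11.64 holds loci listed at 0 in both 50 percent crosses.

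The limits of these groups fall within a continuous range. Just inside the 2-fold limit above, the locus of ENSBTAT00000007237 on chromosome 18 stood at 2.10 FPKM in 75C, 0.487 in 50CSN and 0.548 in 50CSH. Just outside it, locus XLOC_004359 on chromosome 12 stood at 15.7, 3.803 and 7.36 FPKM. Just inside the limit below, XLOC_027544 on chromosome 9 stood at 0.767, 2.54 and 2.87 FPKM, and just outside it XLOC_011657 on chromosome 19 stood at 3.52, 10.6 and 8.03 FPKM. At the level filter, the mean of the last locus kept was 1.00 FPKM, with 1.25 in 75C, 1.16 in 50CSN and 0.592 in 50CSH at ENSBTAT00000044971. The first locus left out, XLOC_004301, had 0.713, 1.86 and 0.423 FPKM.

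Among annotated loci above 0 in all 3 crosses, the 12 farthest above both 50 percent crosses were 4.24 to 11.8 times as high in 75C as in the nearer of them, on the FPKM + 1 scale. The 50 percent crosses differed at them by 0.04 to 0.75 on the log2 scale. The largest distance was at ENSBTAT00000042796 on chromosome 19 from 44675645 to 44743660, with 14.7 FPKM in 75C, 0.330 in 50CSN and 0.123 in 50CSH. H stood at 12.7 and N at 1.82 FPKM there. 75C and H were thus high and both 50 percent crosses low, with N in between. The deposited span of this locus is shared by 5 loci, and 5 of the 12 loci share a span with another.

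The next locus had the purebreds the other way round. ENSBTAT00000012769 on chromosome 9 from 91239245 to 91344892 stood at 16.1 FPKM in 75C, 0.493 in 50CSN and 0.443 in 50CSH, with 12.9 in N and 0.297 in H. ENSBTAT00000018155 on chromosome 5 from 114694562 to 114963596 stood at 27.7 FPKM in 75C, 2.81 in 50CSN, 2.71 in 50CSH, 12.4 in N and 3.12 in H. At both, 75C was nearest to N, although its Holstein share is the larger. The limma estimate for 75C minus the mean of the 50 percent crosses was 2.93 ± 0.15 (SE) at ENSBTAT00000018155, with an adjusted p of 0.0931, and 3.54 ± 0.20 with an adjusted p of 0.127 at ENSBTAT00000012769.

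On chromosome 18, ENSBTAT00000062803, from 44398883 to 44400892, was high in 75C alone. It stood at 8.59 FPKM there, 0.203 in 50CSN, 0.294 in 50CSH, 0.287 in H and 0.772 in N. ENSBTAT00000044918, on the same chromosome from 46718166 to 46737669, stood at 16.2 FPKM in 75C, 2.22 in 50CSN and 1.92 in 50CSH. H was higher still at 37.2 FPKM and N was lowest at 1.65, so 75C lay between the 50 percent crosses and H.

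At several abundant loci, 75C and both purebreds were high and the 50 percent crosses low. ENSBTAT00000062893 on chromosome 5 from 10705353 to 10990081 stood at 170.3 FPKM in 75C, 31.0 in 50CSN and 34.7 in 50CSH, against 148 in H and 216 in N. ENSBTAT00000002231 on chromosome 19 from 28362444 to 28367462 stood at 447 FPKM in 75C, 88.7 in 50CSN and 100.5 in 50CSH, against 333 in H and 217 in N. The 3 high libraries and the 2 low ones did not overlap at either locus. ENSBTAT00000062893 shares its deposited span with 9 other loci, and the division of reads among them was made by the authors' software.

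The same arrangement held at ENSBTAT00000045499 on chromosome 6 from 93913125 to 93913288, at 46.5 FPKM in 75C, 8.33 in 50CSN and 4.79 in 50CSH, with 57.5 in H and 53.7 in N. ENSBTAT00000062174 on chromosome 15 from 40884322 to 40896189 stood at 63.0 FPKM in 75C, 14.1 in 50CSN and 7.96 in 50CSH, with 44.9 in H and 36.6 in N. Here the 50 percent crosses differed by 0.75 on the log2 scale, the widest of the 12. ENSBTAT00000044050 on the unplaced scaffold Un.004.692 stood at 69.7 FPKM in 75C, 15.0 in 50CSN, 12.4 in 50CSH, 46.1 in H and 29.2 in N. Over the 12 loci, H was at least 2-fold above both 50 percent crosses at 9 and N at 8, against 1.93% and 1.91% of all kept loci. The 12 were chosen for low values in the 50 percent crosses, which enter these counts too, so nothing is read from the excess.

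The remaining members of this group were ENSBTAT00000055945 and ENSBTAT00000030641. The first, on chromosome 17 from 76320798 to 76321605, stood at 16.2 FPKM in 75C, 1.90 in 50CSN and 2.81 in 50CSH, with 12.4 in H and 5.84 in N. The other, on the unplaced scaffold Un.004.1243, stood at 37.0 FPKM in 75C, 7.07 in 50CSN and 7.54 in 50CSH, with 47.1 in H and 19.3 in N. In both, the purebreds lay above the 50 percent crosses, H nearer to 75C than N.

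The 12 annotated loci farthest below both 50 percent crosses stood out less. The nearer 50 percent cross was 2.06 to 4.38 times as high as 75C on the FPKM + 1 scale, and 4.24 was the smallest ratio among the 12 loci above. ENSBTAT00000036890 on chromosome X from 6439858 to 6440172 was lowest relative to them, at 0.445 FPKM in 75C, 5.33 in 50CSN and 5.77 in 50CSH, with 5.43 in H and 2.84 in N. ENSBTAT00000018855 on the unplaced scaffold Un.004.2779 was the most abundant, at 53.7 FPKM in 75C, 294 in 50CSN and 221 in 50CSH, with 313 in H and 201 in N. 75C was the lowest of the 5 libraries at both.

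ENSBTAT00000021172 on chromosome 4 from 14736015 to 14826196, a locus of 7 transcripts, stood at 5.23 FPKM in 75C, 19.3 in 50CSN and 24.5 in 50CSH, with 13.6 in H and 15.8 in N. ENSBTAT00000048097 on chromosome 19 from 13740624 to 13835420 stood at 6.37 FPKM in 75C, 28.2 in 50CSN and 22.4 in 50CSH, with 13.7 in H and 62.2 in N. At the latter the libraries were ordered N, 50CSN, 50CSH, H and 75C. It shares its span with 7 other loci.

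At ENSBTAT00000004163 on chromosome 8 from 51002246 to 51003632, 75C was close to H. The values were 1.38 FPKM in 75C, 11.6 in 50CSN, 6.65 in 50CSH, 1.20 in H and 14.1 in N. ENSBTAT00000050345 on the unplaced scaffold Un.004.994 had 0.651 FPKM in 75C, 3.53 in 50CSN, 3.11 in 50CSH, 1.24 in H and 4.07 in N. 75C and H were the low libraries at both.

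ENSBTAT00000009089, near the end of chromosome 19 from 63320061 to 63387426, stood at 6.26 FPKM in 75C, 16.4 in 50CSN and 18.6 in 50CSH, with 7.17 in H and 10.3 in N. On the FPKM + 1 scale, H was at least 2-fold below both 50 percent crosses at 2 of the 12 loci, ENSBTAT00000004163 and ENSBTAT00000009089. N was that low at 0 of the 12. The shares over all kept loci were 0.864% for H and 0.652% for N. The 12 were chosen for high values in the 50 percent crosses, which enter these counts too, so nothing is read from the excess. The remaining 5 loci completed the group, ENSBTAT00000025884 on chromosome 19, ENSBTAT00000046900 on chromosome 10, ENSBTAT00000060554 on chromosome 7, ENSBTAT00000052792 on chromosome 14 and ENSBTAT00000000802 on chromosome 18. Their levels in 75C ran from 0.254 FPKM at ENSBTAT00000025884 to 2.01 at ENSBTAT00000000802. The deposited span of ENSBTAT00000025884 is shared by 9 loci, and 3 of the 12 loci share a span with another. Over all 12, 75C was below H at 11 and below N at 12. The 12 were also chosen for low values in 75C, so nothing is read from these counts.

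**Figure D2:**
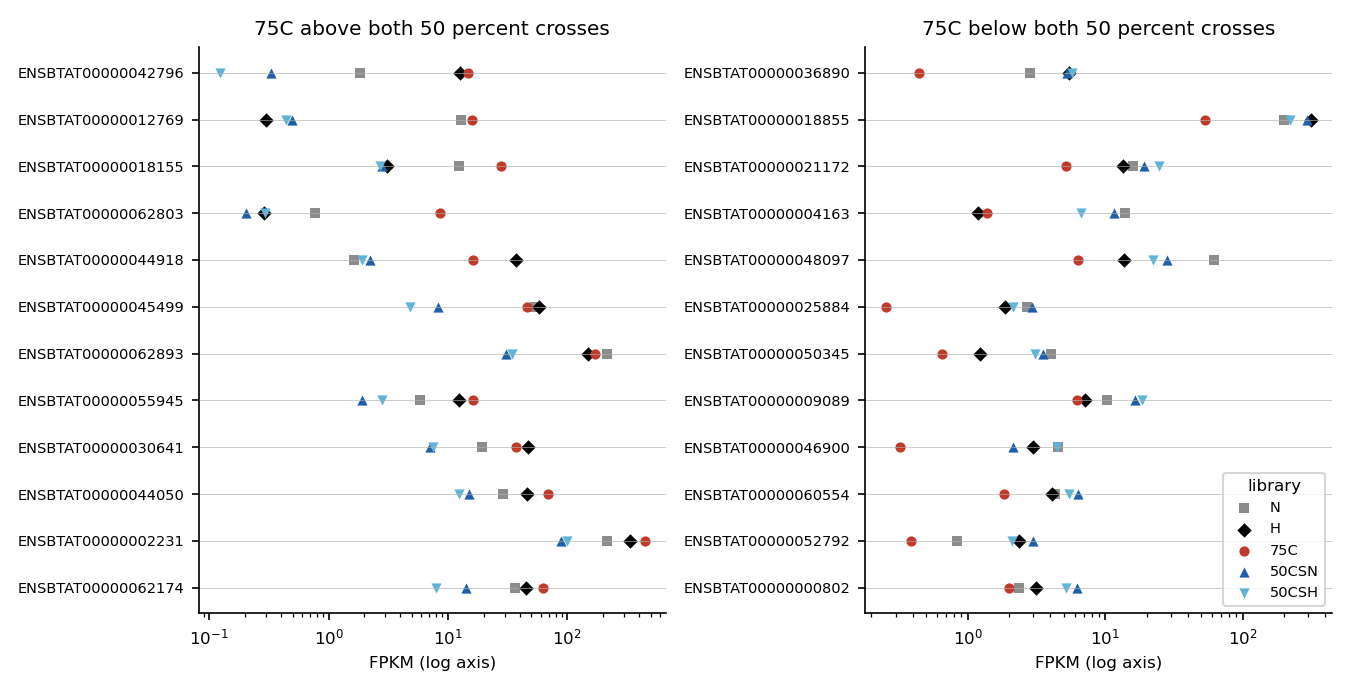
FPKM on a log axis in the 5 libraries at the 12 annotated loci farthest above (left) and the 12 farthest below (right) both 50 percent crosses, 1 point for each library. On the left the purebreds are spread between the crosses and often lie beside 75C. At ENSBTAT00000062893, 75C stood at 170.3 FPKM, H at 148 and N at 216. On the right 75C is the lowest library at 11 of 12 loci, which were chosen for 75C below both 50 percent crosses.

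The limma fit over the 3 crosses gave these differences an adjusted p (Benjamini-Hochberg over the 13653 loci). With 1 library against 2 it has 1 residual degree of freedom, treats reciprocal crosses as replicates and assumes that 75C varies as they do. An exact permutation of 1 against 2 libraries cannot go below p = 0.333. None of the 24 loci above passed limma's adjusted p of 0.05, with values from 0.0931 to 0.599, and all 24 had an unadjusted p under 0.05, which is no support since they were ranked on this difference. All 24 kept their side and stayed at least 2-fold apart under median-of-ratios scaling and quantile normalization.

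The fit passed 7 loci with 75C higher (0.0513% of the loci tested) and 0 with 75C lower (0.0%). Unadjusted p-values of at most 0.05 were given to 744 higher (5.45%) and 388 lower loci (2.84%), with 682.65 in all on average where nothing differs. The excess of higher loci depended on scaling, so no direction is read from it. Lower loci were slightly more numerous after median-of-ratios scaling. Both sides were nearly equal after quantile normalization and over single transcripts. The other limma alternatives kept more higher than lower loci. All 7 loci were listed at 0 in both 50 percent crosses. They passed the level filter through 75C alone, and their spread between the 50 percent crosses is 0 by construction, so their p-values are given as a description. All 7 calls were lost with a pseudocount of 0.1 (smallest limma adjusted p 0.0503), with no filter on low values and over single transcripts. Among loci above 0 in all 3 crosses the smallest limma adjusted p was 0.0931, and 0 loci passed.

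ENSBTAT00000060410 on chromosome 19 from 39265919 to 39591013 had the largest value of the 7, 3189 FPKM in 75C, and was listed at 0 in the 4 other libraries. ENSBTAT00000042288 on chromosome 8 stood at 985 FPKM and ENSBTAT00000041552 on chromosome 23 at 368, both also listed at 0 elsewhere. The limma adjusted p of these 3 was 0.00918, 0.0113 and 0.0181. ENSBTAT00000059672 on chromosome 19 with 115 FPKM and ENSBTAT00000060127 on chromosome 2 with 89.1 had the same pattern. XLOC_020853 on chromosome 3 stood at 132 FPKM in 75C and 55.7 in N, and ENSBTAT00000060390 on chromosome 4 at 77.5 in 75C and 53.6 in N. These were listed at 0 in H and in both 50 percent crosses, and their limma adjusted p was 0.553 and 0.561 in a fit of all 5 libraries.

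Of the 7 loci, 6 lie inside a span that holds another locus, and each has a single transcript. The companion of ENSBTAT00000042288, ENSBTAT00000028162 with 7 transcripts, was level in the 5 libraries at 104 FPKM in 75C, 103 in 50CSN, 106 in 50CSH, 98.4 in H and 95.0 in N. ENSBTAT00000000843, beside ENSBTAT00000060410, stood at 57.4 FPKM in 75C, 60.3 in 50CSN and 62.4 in 50CSH. Within a stretch of chromosome 5 from 34136517 to 34155089, ENSBTAT00000060241 was listed at 30.8 FPKM in 75C alone, and ENSBTAT00000059528 at 12.2 in 50CSN and 13.5 in 50CSH alone. Their companion with 10 transcripts, ENSBTAT00000003487, stayed between 36.9 and 41.0 FPKM in the 5 libraries. Whether the listed zeros are missing RNA or failed estimates was not tested.

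In all, 23 kept loci were listed at 0 in both 50 percent crosses and above 0 in 75C. All 23 had a single transcript, 17 shared a span, and 11 were also listed at 0 in both purebreds. The reverse, listed at 0 in 75C alone of the crosses, was found at 33 loci, 13 of them in a shared span. ENSBTAT00000062717 on chromosome 3 was the highest of these in 50CSN, at 514 FPKM, with 140 in 50CSH. ENSBTAT00000050785 on the unplaced scaffold Un.004.9153 had 119 FPKM in 50CSN and 693 in 50CSH, and both loci were listed at 0 in H and N as well. ENSBTAT00000059254 on chromosome 17 differed from these in being present in every library but 75C, at 25.2 FPKM in 50CSN, 28.2 in 50CSH, 22.3 in H and 36.0 in N. Its limma adjusted p was 0.0548. ENSBTAT00000060069 on chromosome 13 from 53071760 to 53082006 was likewise missing in 75C alone, with 76.2 FPKM in 50CSN, 41.6 in 50CSH, 31.1 in H and 74.4 in N.

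Unannotated loci and loci of a single transcript made up more of the large distances than of all kept loci. Loci with an Ensembl ID made up 53.3% of the 169 above and 42.4% of the 66 below, against 84.4% of all kept loci. Loci of a single transcript made up 72.8% and 78.8%, against 26.6%. Among the 198 short unannotated loci 28 were at least 2-fold above both 50 percent crosses and 13 below. Of the 11529 annotated loci, 90 were above and 28 below. The share of summed FPKM in the short loci, highest in 75C, moves with this excess, and its part in it was not tested.

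Among loci without an Ensembl ID and above 0 in all 3 crosses, XLOC_015934 on chromosome 23 from 43531227 to 43531573 had nearly equal 50 percent crosses. It stood at 18.0 FPKM in 75C and at 2.29 in 50CSN and 2.28 in 50CSH, with 16.9 in N and 10.8 in H. XLOC_030263 on the unplaced scaffold Un.004.5653 lay farther out, at 51.8 FPKM in 75C against 2.51 in 50CSN and 7.13 in 50CSH, but its 50 percent crosses differed by 1.21 on the log2 scale. Below, XLOC_030416 on the unplaced scaffold Un.004.638 stood at 17.1 FPKM in 75C, 45.8 in 50CSN and 45.3 in 50CSH, with both purebreds lower still, at 12.7 in N and 7.67 in H.

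The purebred libraries gave a measure that the choice of loci did not use. At the 387 loci where H and N were at least 2-fold apart, 75C was displaced from the mean of the 50 percent crosses toward H by a median of 0.27 on the log2 scale, and lay on the H side at 240 (62.0%). At 13266 loci with H and N under 2-fold apart the share was 51.9%, and at 6394 loci with them under 1.1-fold apart it was 49.5%. The displacement had the same sign against each 50 percent cross alone, with medians of 0.26 against 50CSN and 0.19 against 50CSH. The 75C and purebred libraries are 1 each, so the same count over other animals is not known.

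The displacement was larger where H was the higher purebred, a difference that was not tested. At the 178 loci with H at least 2-fold above N, 75C was above the mean of the 50 percent crosses at 120 (67.4%), with a median difference of 0.38, and was at least 2-fold above both at 26 (14.6%) and below both at 3 (1.69%). At the 209 loci with N at least 2-fold above H, 75C was on the H side, that is lower, at 120 (57.4%), with a median difference of -0.11. There it was at least 2-fold above both at 23 and at least 2-fold below both at 23. Over all kept loci these shares were 1.24% and 0.483%, and the median difference was 0.04. Loci at which the purebreds differed thus had 75C far out more often in both directions. Without loci listed at 0 in any library, 298 loci remained, with a median displacement of 0.22 toward H and 184 on the H side. The 148 of them with H higher had a median of 0.37 and 102 on the H side. The 150 with N higher had a median of 0.05 and 82 on the H side. Among the latter 75C was at least 2-fold above both 50 percent crosses at 12 and at least 2-fold below both at 10, against 16 and 1 among the former. With an Ensembl ID only, N was at least 2-fold above H at 113 loci, with 75C on the H side at 66. The median displacement toward H there was 0.17 against 50CSN and 0.000246 against 50CSH. 75C was at least 2-fold above both 50 percent crosses at 18 of the 113 and below both at 7. At the 104 annotated loci with H higher, 75C was on the H side at 69, at least 2-fold above both at 14 and below both at 1.

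**Figure D3:**
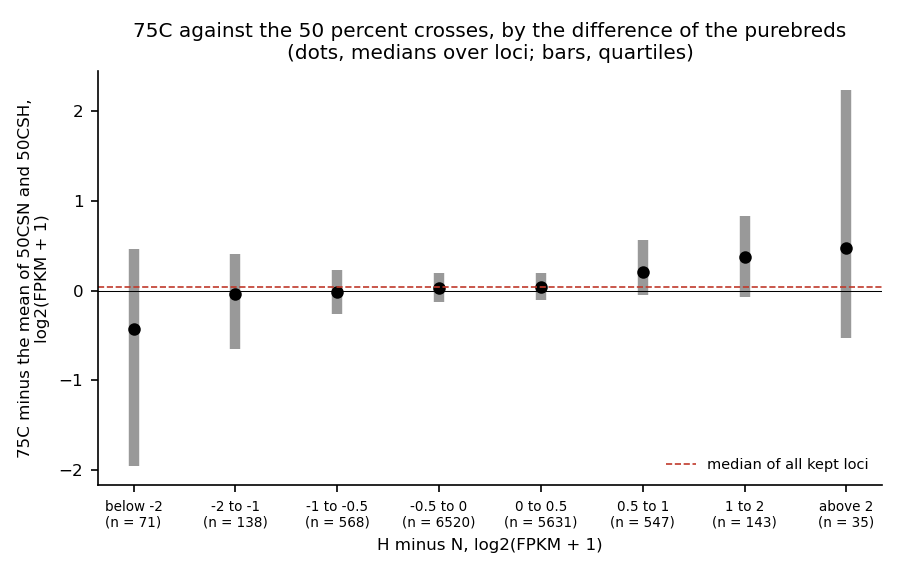
Median difference (dots) and quartiles (bars) of 75C minus the mean of 50CSN and 50CSH, in log2(FPKM + 1), for kept loci grouped by H minus N on the same scale, with the number of loci under each group. The medians go from -0.43 where N is far above H to 0.47 where H is far above N, and the quartile bars are wide at both ends.

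Across the 8 groups of that difference, the median of 75C minus the mean of the 50 percent crosses was -0.43 at the 71 loci with H minus N below -2, -0.03 and -0.02 in the next, 0.03 and 0.04 at the loci around 0, then 0.21, 0.37 and 0.47. The last group, above 2, had 35 loci and quartiles of -0.53 and 2.23. Over the 387 loci Pearson's r between both differences was 0.18 and Spearman's rho 0.24, as a description across loci that share the same 5 libraries. The full order of N, the 50 percent crosses, 75C and H in either direction of level was found at 53 of the 387 loci (13.7%). The order with N and H exchanged was found at 29 (7.49%). Over all kept loci the first order was also the more frequent, at 331 (2.42%) against 208 (1.52%).

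Single loci show both kinds of displacement. Besides ENSBTAT00000042796 and ENSBTAT00000044918, where 75C followed H upward, ENSBTAT00000040802 on chromosome 19 from 14238538 to 14343531 had 75C low with 1.47 FPKM, 40.3 in 50CSN, 6.30 in 50CSH, 12.8 in H and 58.2 in N. The 50 percent crosses are far apart there. In the other direction, ENSBTAT00000051513 on chromosome 21 from 45764779 to 45773401 had 19.8 FPKM in 75C, 1.28 in 50CSN, 3.94 in 50CSH, 1.15 in H and 18.2 in N. ENSBTAT00000049226 on chromosome 19 from 8734352 to 8883076 had 32.1 FPKM in 75C, 5.77 in 50CSN, 8.08 in 50CSH, 4.91 in H and 12.3 in N. 75C and N were the high libraries at both. The deposited span is shared by 4 loci at ENSBTAT00000040802, 2 at ENSBTAT00000051513 and 14 at ENSBTAT00000049226.

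Seen from the 169 loci at least 2-fold above both 50 percent crosses, H was also at least 2-fold above both at 67, N at 74 and both purebreds at 49. Over all kept loci these shares were 1.93%, 1.91% and 1.01%. 75C was at least 2-fold above all 4 other libraries at 49. It was nearer to H than to N at 89 of the 169 (52.7%), against 53.4% of all kept loci. At the 66 loci below, H was at least 2-fold below both 50 percent crosses at 30, N at 11 and both at 8, against 0.864%, 0.652% and 0.190% of all kept loci. 75C was nearer to H at 47 of the 66 (71.2%) and at least 2-fold below all 4 others at 19. Restricted to loci above 0 in all 5 libraries, it was nearer to H at 30 of 39 (76.9%), and H was 2-fold below both 50 percent crosses at 13 and N at 6. These counts rest on single libraries, and the 50 percent crosses, which chose the loci, enter both sides of them. The difference between the 169 and the 66 was not tested.

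75C was also higher where annotated loci are dense. The placed loci were divided into 5 equal groups by the number of annotated loci within a window of 1 Mb. In the sparsest group, with a median of 6 annotated loci, 75C was above the mean of the 50 percent crosses at 48.3% of loci, with a median difference of -0.01. The next groups, with medians of 10, 16 and 24, gave 48.9%, 54.2% and 61.0%. In the densest group, with a median of 41, it was 68.3% and the median difference 0.12. The rise was present against each cross, up to 0.13 against 50CSN and 0.10 against 50CSH, whereas 50CSH minus 50CSN went from 0.01 to 0.03.

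**Figure D4:**
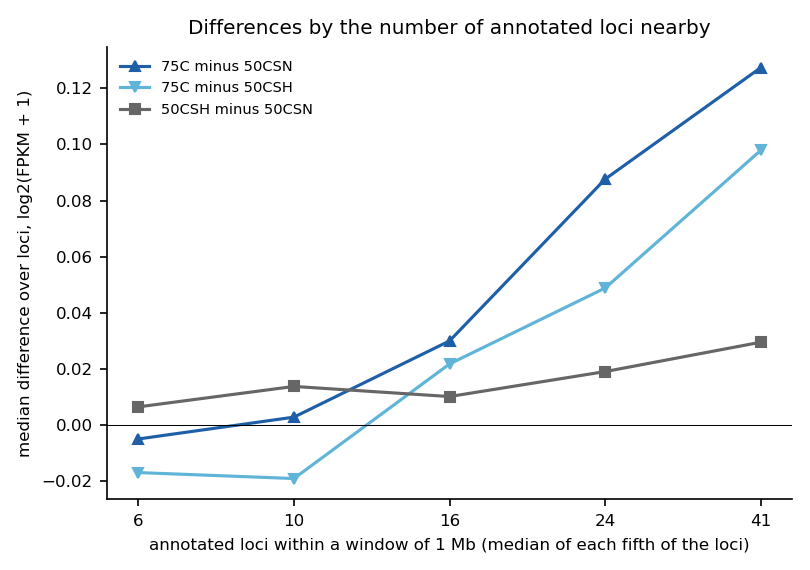
Median difference over loci, in log2(FPKM + 1), for 5 equal groups of the placed loci ordered by annotated loci within 1 Mb, with each group's median number on the horizontal axis. Both lines with 75C climb to 0.13 and 0.10 in the densest group, and the line between the 50 percent crosses ends at 0.03.

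The share was higher in the densest than in the sparsest group at every level of expression examined. At 1 to 5 FPKM, 75C was above at 53.3% of loci in the sparsest group and at 65.4% in the densest. At 5 to 20 FPKM the shares were 49.1% and 75.0%, and at 20 to 100 FPKM at 42.4% and 69.8%. Above 100 FPKM the shares were 37.3% and 49.8%. Level itself moved with the difference: the median was 0.08 at 1 to 5 FPKM, 0.04 at 5 to 20, 0.02 at 20 to 100 and -0.05 above that. The 5 groups from sparse to dense held 16, 21, 32, 35 and 32 loci at least 2-fold above both and 19, 7, 10, 11 and 7 below both.

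Chromosomes differed accordingly. 75C was above the mean of the 50 percent crosses at 69.1% of loci on chromosome 25, 65.1% on 29, 64.9% on 19 and 64.5% on 18. The lowest shares were 44.1% on chromosome 9, 46.0% on 6 and 46.7% on 4. Over the 30 chromosomes, Pearson's r between this share and the median number of annotated loci nearby was 0.81 and Spearman's rho 0.69, as a description of 3 libraries.

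**Figure D5:**
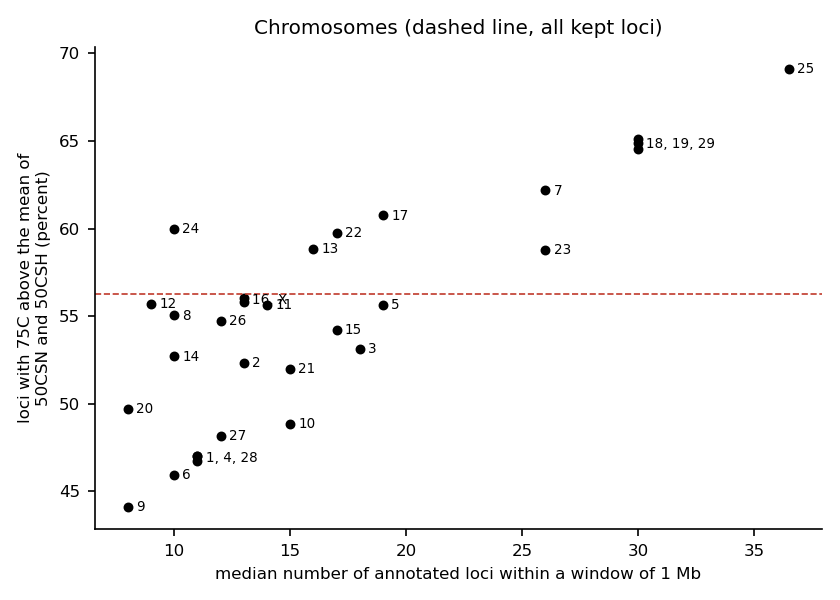
Each point is a chromosome, labelled by its name, with the median number of annotated loci within 1 Mb of its kept loci on the horizontal axis and the percentage of its loci with 75C above the mean of 50CSN and 50CSH on the vertical axis. Chromosome 25 lies highest at 69.1% and chromosome 9 lowest at 44.1%, around 56.3% for all kept loci (dashed line).

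Chromosome 5 held the most loci with 75C far above, 20 of its 737 (2.71%, against 1.24% of all), with 3 below. Of the 20, 11 lie between 107365142 and 120629435. These bounds are the outer ends of the 11 loci themselves, and the kept loci between them were not counted. Whether the 11 are a larger share there than on the whole chromosome is therefore not known. ENSBTAT00000016267 from 111097633 to 111209709 stood at 14.7 FPKM in 75C, 6.63 in 50CSN and 3.23 in 50CSH, and ENSBTAT00000037671 from 117480208 to 117486671 at 56.9, 18.5 and 10.2. The purebreds differed at the latter, with 51.1 in H and 7.42 in N. ENSBTAT00000042897 at 109308744 had 22.0 FPKM in 75C, 8.27 in 50CSN, 3.41 in 50CSH, 9.06 in H and 2.89 in N. ENSBTAT00000049607 at 119965722 had 36.5, 5.78 and 9.39 FPKM in the crosses, with both purebreds as high as 75C at 35.2 in H and 41.5 in N. No common order of the purebreds ran through the stretch.

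Few windows held several such loci. Of 2560 windows of 1 Mb or unplaced scaffolds with kept loci, 2412 held none of the 169, 132 held 1, 12 held 2, 3 held 3 and 1 held 4. The last was chromosome 19 from 8 to 9 Mb, with 4 of 15 loci. The 15 have 9 distinct starts, so they are not all separate stretches. ENSBTAT00000041077 and ENSBTAT00000049226, among the 4, carry the same deposited span, which is shared by 14 loci. The first of them was listed at 0 in both 50 percent crosses. This window contains ENSBTAT00000042361 from 8514574 to 8518043, at 33.8 FPKM in 75C, 13.5 in 50CSN, 13.7 in 50CSH, 37.7 in H and 31.3 in N, so that the 50 percent crosses were the low libraries. ENSBTAT00000015433 from 8461888 to 8513481 had the same order of groups at a low level, 3.47, 0.371 and 1.17 FPKM in the crosses, with 2.93 in H and 4.10 in N.

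On the unplaced scaffold Un.004.309, 3 of 5 kept loci were far above. XLOC_029369 stood at 124 FPKM in 75C and 29.7 in 50CSH, and was listed at 0 in 50CSN, with 28.5 in H and 0 in N. XLOC_029371 stood at 106 and 30.7 FPKM, with 23.4 in H, and XLOC_029372 at 19.1 and 5.76, with 5.48 in H. 50CSN and N were listed at 0 at all 3, and 75C was more than 3-fold above H and 50CSH. On the log2 scale 75C lay above 50CSH by 2.02, 1.76 and 1.57. The 50 percent crosses differed by more, 4.94, 4.99 and 2.76, so none of the 3 exceeded that difference. On chromosome 11 from 2 to 3 Mb, ENSBTAT00000027120 had 35.5 FPKM in 75C, 9.63 in 50CSN and 8.42 in 50CSH, but the purebreds were higher, at 54.3 in H and 133 in N. For the 66 loci below, 2496 windows held none, 62 held 1 and 2 held 2.

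The authors' deposited table calls transcripts, not loci, by their own test on single libraries. In the authors' deposited table, 31 of 36525 tested transcripts (0.0849%) were called between 75C and 50CSN, 16 of them higher in 75C, and 21 of 36557 (0.0574%) between 75C and 50CSH, 10 of them higher. Between 50CSN and 50CSH 17 were called there (0.0477%). Both comparisons share 75C. The 10 transcripts called in both make up 32.3% of the first list and 47.6% of the other. All 10 lie on the same side of both crosses, 5 higher in 75C and 5 lower, and 6 are listed at 0 on 1 side.

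Of the 4 transcripts in the authors' deposited table called in both and above 0 in all crosses, 3 were higher in 75C. ENSBTAT00000034535 on chromosome 15 from 13557764 to 13593159 stood at 26.5 FPKM in 75C, 8.75 in 50CSN, 5.78 in 50CSH, 19.7 in H and 10.6 in N. The called transcript of ENSBTAT00000052389, on chromosome 5 from 9774359 to 9799562, stood at 8.90, 1.75 and 1.102 FPKM in 75C, 50CSN and 50CSH. The others were ENSBTAT00000042361 and, lower in 75C, ENSBTAT00000018855. XLOC_030257, unannotated on the unplaced scaffold Un.004.561, is a locus of 6 transcripts. Its transcript called in both was listed at 0 in 75C, with 6.38 FPKM in 50CSN, 10.03 in 50CSH, 5.17 in N and 9.87e-05 in H.

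The mitochondrial loci, inherited from the dam, differed little. They took 5.70% of the summed FPKM in 75C, 6.03% in 50CSN and 5.82% in 50CSH. None of the 4 kept mitochondrial loci was 2-fold apart, and the widest was ENSBTAT00000060536 at 1893 FPKM in 75C, 1211 in 50CSN and 1422 in 50CSH.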

How the data were processed

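Peripheral blood leukocytes were sequenced as poly(A) RNA, 1 library for each of 5 populations. The submitters' processing notes name TopHat2 2.0.9 together with Cufflinks 2.2.1.0. Build and annotation: not given in the sources used here. Per the file headers, FPKM was deposited by the authors for 72812 transcripts, beside log2 fold changes, p-values and q-values of library pairs. 1 FPKM value per transcript and library was summed per locus, and loci averaging 1 FPKM or more in the 3 crosses were used. Deposited starts count from 0 and are printed counted from 1. Values were compared as log2(FPKM + 1), with a pseudocount of 1. 75C was compared with the mean of 50CSN and 50CSH by limma (version 3.58.1, R 4.3.3) with its trend option; p-values were adjusted by Benjamini-Hochberg, and the script was tested on simulated data. The p-values measure only the spread between these libraries. Other steps used pandas 2.3.3 and numpy 2.4.6 under Python 3.11.15, and matplotlib 3.10.9. Depth is known only relative to 75C, so no counting interval is given.

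Named loci were those with an Ensembl ID and above 0 in the 3 crosses whose distance exceeded the difference between the 50 percent crosses, the 12 farthest in each direction. To these came the 4 farthest in each direction among loci listed at 0, loci past the adjusted p, windows of 1 Mb with the most loci, the 4 farthest toward H and toward N, and transcripts the authors called in both comparisons. Unannotated loci, members of chromosome 5 and of further windows, and companions in a span were added after their values were seen. The members, lists and named windows were chosen with earlier results of these data known. The reference table of gene names held no Ensembl IDs, so none of the 31460 Ensembl IDs could be matched. The marker and pathway lists were therefore not read. Alternatives were other pseudocounts, filters, scalings, limma settings, single transcripts, and each 50 percent cross alone.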

Additional observations from a re-analysis of the deposited data

How the results depend on the processing

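The 169 loci at least 2-fold above both 50 percent crosses became 693 over single transcripts and 90 with an Ensembl ID only. Against 1 of the crosses alone they were 300 without 50CSH and 341 without 50CSN. The 66 loci below became 124 with a pseudocount of 0.1, 37 at a mean of at least 5 FPKM, 41 without loci listed at 0, 738 over single transcripts, 28 with an Ensembl ID only, 190 without 50CSH and 156 without 50CSN. The 3216 and 2286 loci past the difference between the 50 percent crosses were 5618 and 4843 over single transcripts, and the 3216 were 5347 with no filter. After centring within groups by annotated loci nearby, an alternative chosen after seeing the data, 42.6% of such loci had 75C higher.

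The median displacement toward H, 0.27, stayed positive under the 13 alternatives tried. It was 0.17 with no filter, 0.38 at a mean of at least 5 FPKM, 0.15 over single transcripts, 0.19 without 50CSN and 0.26 without 50CSH. It was 0.15 at loci with H and N at least 1.5-fold apart and 0.46 at least 4-fold apart, with 69 of 106 loci on the H side. The trend with annotated loci nearby and the share of short loci moved little.

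The limma count of 7 higher loci was 0 with a pseudocount of 0.1, with no filter, without loci listed at 0 and over single transcripts. It was 16 with an Ensembl ID only, 16 without a trend, 12 with robust fitting, 13 in a fit of all 5 libraries and 17 at an adjusted p of 0.1. The count of 0 lower loci by limma, with 388 at an unadjusted p of 0.05, was 1 at a mean of at least 5 FPKM, 3 with an Ensembl ID only, 1 with robust fitting, 2 with all 5 libraries and 3 at an adjusted p of 0.1. The causes of these changes were not tested. Of 192 values recomputed for 64 named loci, 136 moved by less than the difference between the 50 percent crosses, 56 moved by more and 0 changed sign. No paired analysis was possible because each population has 1 library and the groups share no replicate numbers that tie animals. Depth limits what can be said of low loci and of listed zeros, since no read counts are at hand.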
